A study of Mus musculus with 2 samples.

Results

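Checkpoint-high CD8 T cells are the T cells of a mouse melanoma that carried Cd8a or Cd8b1 together with high mRNA of the receptors Pdcd1 (PD-1), Havcr2 (TIM-3), Lag3 and Tnfrsf9 (4-1BB). A cell was a member if it had at least 1000 gene UMIs, 500 genes and at most 10% mitochondrial UMIs, at least 3 UMIs of Cd3d, Cd3e and Cd3g, at least 2 UMIs of Cd8a and Cd8b1, and 0 UMIs of Cd4 and Foxp3. It also had under 1000 CPM of the macrophage complement genes C1qa, C1qb and C1qc and at least 500 CPM of the 4 receptor genes summed. The members were thus chosen by measured receptor mRNA. CPM are counts per 1000000 gene UMIs, of a cell or of all cells of a set summed. The rule found 93 members among 4236 cells, 2.20% (1.78–2.68, exact Clopper-Pearson interval). They were 42.5% (35.8–49.3) of the 219 cells that met all limits but the last, and the other 126 are called checkpoint-low CD8 T cells here.

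CD8 T cells kill target cells with perforin and granzymes and secrete interferon gamma and chemokines. In tumours, where antigen persists, their receptor stays engaged, and many take up a state known as exhaustion, with lasting expression of inhibitory receptors and the transcription factor TOX. A smaller pool that keeps TCF-1, the product of Tcf7, is known to renew the exhausted cells, which lose Tcf7 and gain TIM-3 as they differentiate.

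B78ChOVA cells, a line of the B16 melanoma family that carries mCherry and ovalbumin, were injected under the skin of mice in Matrigel at a final volume of 50 µl, and tumours were taken after 16 days. Live sections of about 160 µm were spatially barcoded by ZipSeq, in which light places DNA barcodes on cells of chosen regions, and immune cells were then sorted and captured in 10x Genomics droplets. The 2 samples were the gene expression and the spatial barcode library of the same cells, so there were no replicates and no second condition. The strain, age and sex of the mice, the number of tumours and any transfer of cells are not stated in the labels. With 1 library no test was made: intervals in parentheses are 95% intervals for counting error only, and a gene counts as past the fold at a ratio of at least 2 or at most 0.5.

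Members had a median of 12571 gene UMIs (3627 to 73634), against 6152 (2078 to 109328) in checkpoint-low cells, and a median of 3173 against 1973 genes. Their median mitochondrial share was 3.48%, against 4.45%. Deeper cells more often show a UMI of any gene. For some genes, shares are therefore also given after thinning each cell to 3000 UMIs, which kept all 93 members and 120 checkpoint-low cells. Shares without a thinned value are not matched for depth. Free RNA, read from barcodes with 10 to 100 gene UMIs, gives the composition of the RNA outside cells. A droplet with a cell takes up only a share of it, which was not measured, so a free RNA level is no background level of a cell. An alternative setting subtracted free RNA at an assumed share of 10%.

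The receptors that chose the members were spread unevenly among them, which is a description and no finding. A Lag3 UMI was found in 90 of 93 members, Tnfrsf9 in 74, Pdcd1 in 68 and Havcr2 in 57. All 4 genes were found together in 38 members, 3 of them in 33, 2 in 16 and 1 in 6, of which 5 had Lag3 alone. The sum of the 4 genes ran from 507 to 4939 CPM with a median of 1171. Just inside the limit lay cells at 507, 510 and 536 CPM, and just outside at 490, 486 and 481 CPM. Between 500 and 600 CPM there were 13 members, and 8 checkpoint-low cells lay between 400 and 500 CPM. The calls rested on 2 to 163 receptor UMIs per member with a median of 17, and 69 of 126 checkpoint-low cells had no receptor UMI.

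**Figure D1:**
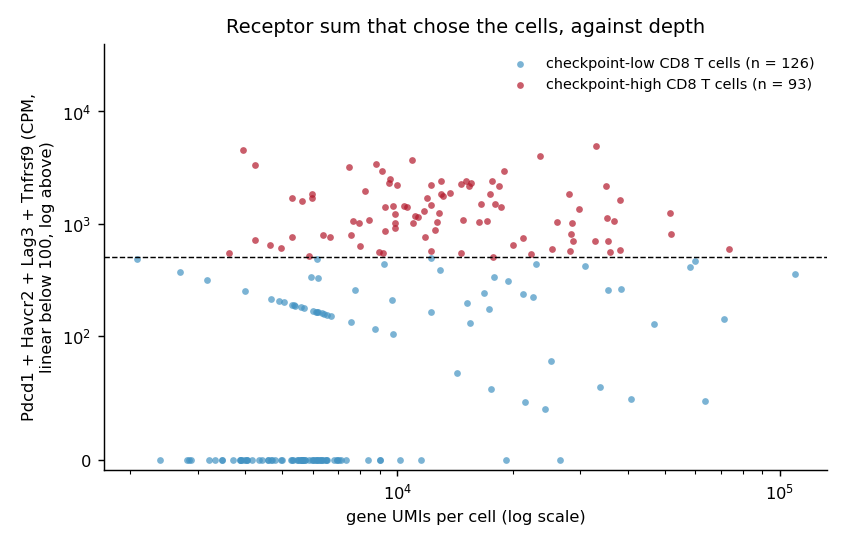
Sum of Pdcd1, Havcr2, Lag3 and Tnfrsf9 (CPM, linear below 100 and log above) against gene UMIs per cell (log axis) for 93 checkpoint-high and 126 checkpoint-low CD8 T cells, 1 point per cell, with the limit of 500 CPM as a dashed line. Members cover the depth range from 3627 to 73634 UMIs, and 69 checkpoint-low cells lie at 0.

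The CD3 and CD8 genes were part of the rule and say nothing more on the label. Gzmb (granzyme B), a marker outside the rule, was found in 64 of 93 members. Of 7 NK cell markers, Ncr1, Klrb1c, Klra8, Klra4 and Klra9 were at 0 UMIs in all members, while Eomes and Gzma, which CD8 T cells also express, stood at 59.8 and 19.3 CPM. The 5 gamma delta T cell markers summed to 37.9 CPM in members (0 to 1111 per cell) and 51.8 CPM in checkpoint-low cells, with Trdc at 15.4 against 1.34 CPM and Trdv4 at 0. The dendritic cell genes Xcr1 and Clec9a were at 0 UMIs in both sets. The 9 dendritic cell markers, with Cd74 at 1041 CPM in members, summed to 1788 CPM over members (0 to 45265 per cell) and 7481 CPM over checkpoint-low cells. The 5 B cell markers summed to 1.29 and 1.34 CPM, with Ms4a1 and Iglc2 at 0 in both. The 7 monocyte markers summed to 2328 and 2320 CPM. The 7 CD4 T and regulatory T cell markers, with Cd4 and Foxp3 at 0 by the rule, summed to 483 and 143 CPM. The 10 macrophage markers summed to 849 CPM over members (0 to 12200 per cell), 2533 CPM over checkpoint-low cells (0 to 19124) and 23674 CPM in free RNA. Some cells also carried MHC class II mRNA. More than 5000 CPM of H2-Aa, H2-Ab1, H2-Eb1 and Cd74 were found in 2 members, which held 3.19% of the members' UMIs, and in 14 checkpoint-low cells, which held 30.2% of theirs. Without these cells the macrophage markers summed to 705 and 380 CPM. No doublets were removed. A fluorescent transgene, dsRed, had UMIs in 32 members and 7 checkpoint-low cells, described further on. Where leaving out the class II cells or the dsRed cells ends or turns a call of a named gene, that value is given beside it.

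Compared with checkpoint-low CD8 T cells, the members carried far more mRNA of chemokines, perforin, interferon gamma and TNF receptor family genes, and far less of the genes of resting and circulating T cells. Of 7325 genes compared, 223 were at least 2-fold higher, 3.04%, and 399 at least 2-fold lower, 5.45%. Without the class II cells these counts were 327 higher and 200 lower of 6667, so that most genes past the fold then lay on the higher side. Without the dsRed cells they were 204 higher and 406 lower of 6374. Among the 15 leading higher genes, 13 stayed at least 2-fold higher under each of the alternative settings tried. The exceptions were Xist and the dsRed transgene, which stood at 1.97 and 1.56 with a receptor limit of 1000 CPM. The 15 genes were picked by their ratio, and the alternatives reuse mostly the same cells. Their staying past the fold is thus a description and no independent check.

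**Figure D2:**
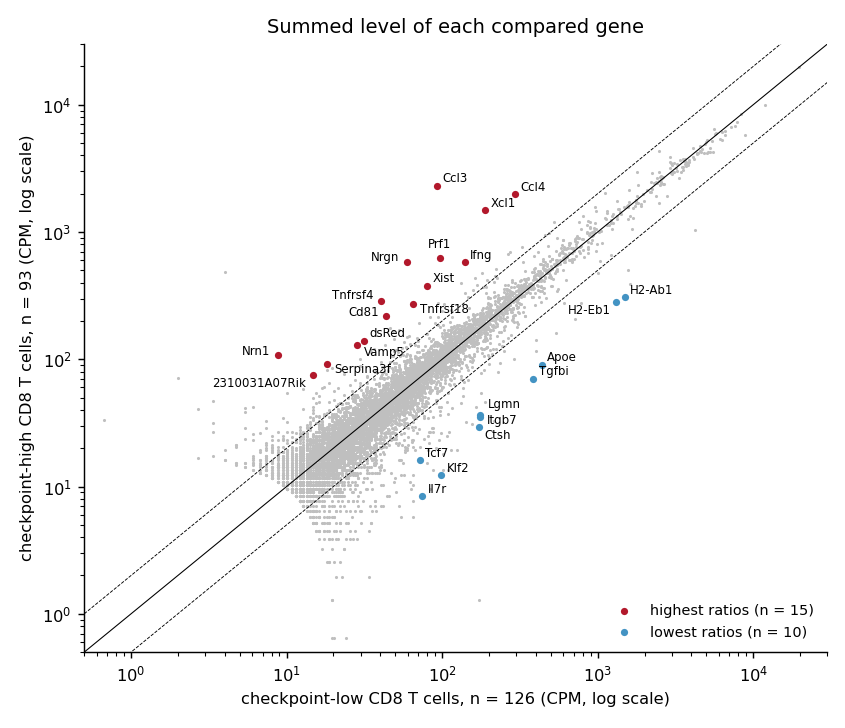
Level of each compared gene in checkpoint-high (vertical) and checkpoint-low (horizontal) CD8 T cells, both as CPM of summed counts on log axes, for genes with UMIs in both sets. The solid line marks equal levels and the dashed lines 2-fold differences, with the 15 highest ratios in red, led by Ccl3 at 25.1, and the 10 lowest in blue.

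Many chemokine and cytokine genes stood higher in members. Of 16 genes in this list, 13 were compared, 8 were past the fold upwards and 1 downwards, with a median ratio of 2.39 against 1.00 over all genes compared. Among the higher genes, Csf1, Ccl1, Tnf and Lta reached the 30 UMIs of the gene filter only through the members. The count and the median are therefore a description. Per cell the summed list was closer, at a median of 10788 CPM in members and 9748 CPM in checkpoint-low cells. Ccl3, which encodes the chemokine MIP-1 alpha, lay at 0 to 25958 CPM per member with a median of 245, and its median over checkpoint-low cells was 0. Summed, Ccl3 reached 2315 against 92.1 CPM, a ratio of 25.1 (21.18–30.02), with free RNA at 344 CPM. It was found in 75.3% of members and 24.6% of checkpoint-low cells, and in 57.0% and 14.2% after thinning. Regulatory T cells of the same tumour, at a median of 8826 UMIs, showed a Ccl3 UMI in 18.5% of cells. The spread among members was wide, and the cell with most Ccl3 held 17.5% of its UMIs.

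Ccl3 is a near neighbour of Ccl4, the gene of the related chemokine MIP-1 beta. In mm10 the protein-coding gene Ccl3 spans chr11:83647844-83649355 on the minus strand, and Ccl4 spans chr11:83662584-83664683 on the plus strand, 13228 bases apart. The Ccl3 promoter, from 250 bases before to 50 after its start, is shown because it was the sole match in a search of the leading genes. It lies at chr11:83649329-83649628 on the minus strand in GRCm38.p6, the RefSeq build of mm10, and reads 5′ to 3′ as follows, with the match in capitals.
Ccl3 promoter: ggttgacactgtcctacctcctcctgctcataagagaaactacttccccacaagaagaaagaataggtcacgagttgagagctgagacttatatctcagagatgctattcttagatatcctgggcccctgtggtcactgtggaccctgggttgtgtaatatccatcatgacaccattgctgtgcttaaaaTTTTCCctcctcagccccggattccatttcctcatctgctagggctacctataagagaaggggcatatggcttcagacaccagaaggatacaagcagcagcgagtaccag
The capitals mark TTTTCC, the reverse complement of the NFAT core GGAAAA. Of the 10 leading genes 7 had promoters in the RefSeq table, 8 sequences in all, and 1 of 8 held the NFAT core on either strand, against 23.4% of 32851 promoters. The AP-1 motif TGACTCA was found in 0 of 8 (5.20% of all promoters), and the NR4A motif AAAGGTCA in 0 of 8 (1.51%). A match describes letters in this window and no binding.

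Ccl4 reached 1979 against 292 CPM, a ratio of 6.78 (6.13–7.52), with 1165 CPM in free RNA, and per member it ran from 0 to 48747 CPM with a median of 302 against 139 in checkpoint-low cells. Xcl1, which draws cross-presenting dendritic cells, reached 1478 against 190 CPM, 7.79 (6.88–8.85). Its median per member was 0, since 40 of 93 members had a UMI, and the top cell held 29.9% of the UMIs. Without the cells that had a dsRed UMI, described further on, its ratio was 4.39. Ifng, the gene of interferon gamma, lay at a median of 324 CPM per member (0 to 3638) and 0 in checkpoint-low cells. Summed it reached 579 against 140 CPM, 4.14 (3.56–4.84), and it was found in 81.7% against 46.0% of cells (60.2% and 26.7% thinned).

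Growth factors and rarer cytokines followed. Csf1, the gene of macrophage colony-stimulating factor, had 52 UMIs in 33 members and 1 UMI in checkpoint-low cells, a ratio of 49.7 (8.54–2001), and at least 19.98-fold higher without the dsRed cells. Ccl1, a ligand of CCR8, reached 487 against 4.03 CPM, but 51.9% of its UMIs came from 1 member and it was found in 17 members. Tnf stood at 27.6 against 12.1 CPM, 2.28 (1.29–4.21), but 1.67 (0.764–3.70) without the dsRed cells, and Lta (lymphotoxin alpha) at 19.3 against 8.07 CPM, 2.39 (1.19–5.13). Il2 had 4 and 5 UMIs, too few to compare. Ccl5, the chemokine RANTES, was not past the fold at 4144 against 5077 CPM, 0.816 (0.789–0.844), and its direction turned without the dsRed cells, 1.10 (1.06–1.14). Its median per cell was 3135 CPM in members and 7436 in checkpoint-low cells. Ccl9 was the gene past the fold downwards, at 7.07 against 40.3 CPM, but 1.24 (0.373–4.71) without the class II cells, on too few UMIs to compare. Flt3l, a growth factor gene, followed at 0.585 (0.387–0.876), and 0.456 without the class II cells.

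**Figure D3:**
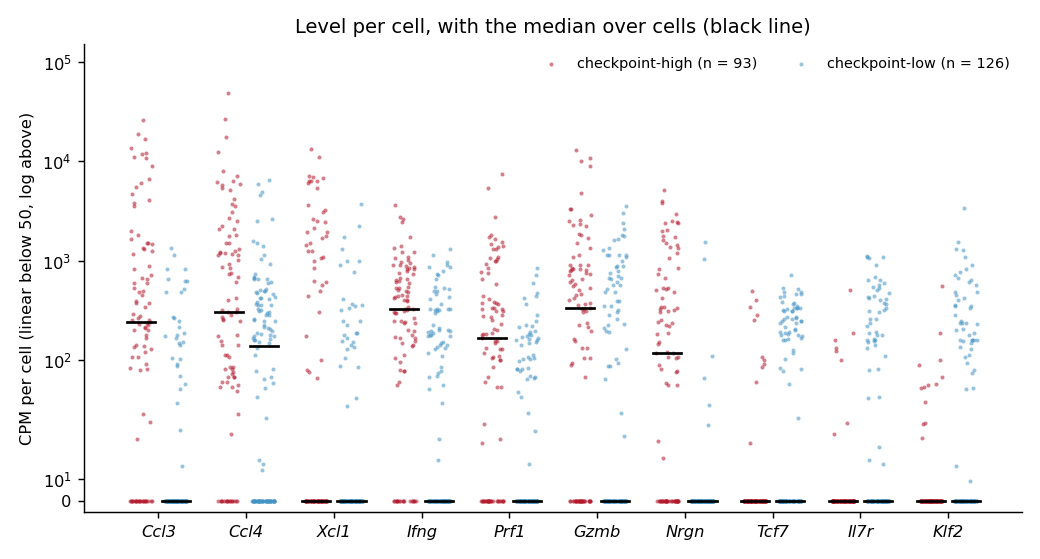
CPM per cell (linear below 50 and log above) of 10 genes in 93 checkpoint-high (red) and 126 checkpoint-low (blue) CD8 T cells, 1 point per cell, with the median over cells as a black line. Ccl3, Ifng, Prf1, Gzmb and Nrgn have medians above 0 in members and at 0 in checkpoint-low cells. Tcf7, Il7r and Klf2 are at 0 in most members, and Tcf7 and Il7r are also at 0 in most checkpoint-low cells.

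Genes of the killing machinery split, with perforin and some granzymes higher and others lower. Of 16 cytotoxic genes 12 were compared, 3 were higher and 3 lower past the fold, with a median of 1.16. Prf1 (perforin, which opens the target membrane) lay at a median of 167 CPM per member (0 to 7382) and 0 in checkpoint-low cells, and summed to 630 against 96.8 CPM, 6.51 (5.46–7.80). Without the class II cells the Prf1 ratio was 8.59. Gzmb reached 1194 against 524 CPM, 2.28 (2.09–2.48), with medians of 336 and 0 CPM, and 3.57 without the dsRed cells. Gzmc was higher too, at 70.7 against 2.02 CPM, but it rested on 11 members, with 47.3% of its UMIs in 1 of them. Other granzyme genes stood lower in members. Gzmk stood at 101 against 289 CPM, 0.349 (0.289–0.420), which was 0.539 with a receptor limit of 250 CPM, and Gzma at 19.3 against 114 CPM, 0.170 (0.111–0.251), found in 6.45% and 14.3% of cells. Lamp1, a lysosome membrane gene, was the third below the fold at 0.442 (0.353–0.550), and 0.766 without the class II cells. Nkg7, of cytotoxic granules, was found in all members at 2969 against 1788 CPM, 1.66 (1.58–1.74), and Gzmd and Gzme had 0 UMIs in both sets.

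Further inhibitory surface receptors, outside the 4 of the rule, stood higher in part. Of 14 listed genes 13 were among the features and 9 were compared, of which 4 were past the fold upwards and 0 downwards, with a median of 1.91. Cd200, an immunoregulatory membrane protein, stood at 28.9 against 7.40 CPM, 3.91 (1.99–8.38), on too few UMIs to compare without the dsRed cells. Klrc1, which encodes the inhibitory NKG2A, stood at 154 against 61.2 CPM, 2.51 (1.96–3.23), and was found in 64.5% against 27.0% of cells (34.4% and 16.7% thinned). Cd200r1 reached 2.17 (1.15–4.28). Cd160 reached 2.20 (1.67–2.91), but 1.74 without the class II cells and 1.23 (0.832–1.80) without the dsRed cells, which held 181 against 60.2 CPM of it among members. Ctla4 was short of the fold at 146 against 82.7 CPM, 1.76 (1.41–2.22), and past it at 2.38 (1.81–3.15) without the dsRed cells. Entpd1 (CD39) at 18.6 against 22.2 CPM did not differ beyond its interval, 0.840 (0.492–1.43), and stood at 1.46 (0.772–2.77) without the dsRed cells. Vsir, which encodes VISTA, was the lowest at 39.9 against 69.9 CPM, 0.570 (0.409–0.788). Tigit had 6 and 2 UMIs and could not be compared.

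Transcription factor genes of effector and exhausted cells were mostly at or above the checkpoint-low level. Of 18 genes 17 were compared, 6 were higher past the fold and 1 lower, with a median of 1.33. Batf, a partner of IRF4 downstream of the T cell receptor, lay at a median of 215 CPM per member (0 to 1842) against 0, and summed to 278 against 93.5 CPM, 2.97 (2.45–3.62). Irf8 followed at 2.64 (2.19–3.20), and 4.93 without the class II cells. Bhlhe40, a stress-responsive repressor of effector T cells, reached 2.53 (2.25–2.84), and Nr4a2, a nuclear receptor induced by antigen, 2.29 (1.87–2.81). Id2 reached 2.02 (1.85–2.21) and Rbpj, the DNA-binding partner of Notch, 2.004 (1.58–2.56). Nr4a2 and Rbpj were short of the fold without the dsRed cells, at 1.97 and 1.92, and Id2 without the class II cells, at 1.89. Tox stood at 180 against 96.8 CPM, 1.86 (1.51–2.29), and was found in 80.6% against 39.7% of cells (47.3% and 23.3% thinned). Without the dsRed cells it was past the fold at 2.07. Nr4a1 and Nr4a3, the other members of the NR4A family, gave 0.908 (0.567–1.45) and 0.898 (0.532–1.51). Eomes and Tbx21, which encode the T-box factors EOMES and T-bet, gave 0.880 (0.657–1.18) and 1.08 (0.711–1.66). Maf was the gene past the fold downwards at 0.233 (0.131–0.393), and 0.40 without the class II cells. Irf4, the partner of BATF, followed at 0.553 (0.238–1.22).

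Many genes of progenitor, memory and circulating T cells stood lower in members. Of 16 genes 12 were compared, 7 were lower past the fold and 0 higher, with a median of 0.289, and without the dsRed cells 10 of 12 were lower. Il7r, the interleukin 7 receptor that sustains resting T cells, had a UMI in 8 of 93 members against 38.1% of checkpoint-low cells, and stood at 8.36 against 74.6 CPM, 0.112 (0.0578–0.199). Klf2, which drives the genes of tissue exit, stood at 12.2 against 98.9 CPM, 0.124 (0.0723–0.200), with 231 CPM in free RNA. S1pr1, the receptor that lets T cells leave tissue, gave 0.183 (0.0926–0.334). Tcf7 was found in 11.8% of members and 42.9% of checkpoint-low cells (3 of 93 and 36 of 120 thinned) and stood at 16.1 against 72.0 CPM, 0.223 (0.138–0.348), and 0.116 without the dsRed cells. Lef1, its relative, gave 0.217 (0.0975–0.438), Klf3 0.137 (0.0474–0.323) and Ly6c2, a memory T cell surface gene, 0.355 (0.317–0.397). Slamf6 and Myb, which mark progenitor-exhausted cells, were not past the fold at 0.767 (0.532–1.10) and 1.04 (0.641–1.68). Without the dsRed cells Slamf6 stood at 0.551 (0.326–0.904) and Myb past the fold at 0.454 (0.189–0.985). Foxo1, which drives memory genes, gave 0.870 (0.622–1.22). Ccr7, the lymph node homing receptor, gave 0.609 (0.431–0.856), but 1.11 (0.720–1.73) without the class II cells and 0.277 (0.144–0.494) without the dsRed cells.

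Genes of homing and residency split, with Cxcr6 higher and several receptors and integrins lower. Of 16 genes 12 were compared, 1 was higher and 4 lower past the fold, with a median of 0.620. Cxcr6, the receptor of CXCL16, was found in 89.2% of members and 60.3% of checkpoint-low cells and stood at 516 against 223 CPM, 2.31 (2.03–2.63). Without the class II cells it was short of the fold at 1.93, and without the dsRed cells it was 3.48. Itgal, the alpha chain of LFA-1, gave 1.31 (1.09–1.59). Itgb7, an integrin chain of gut homing, was found in 24.7% against 71.4% of cells (10.8% and 45.8% thinned) and stood at 35.4 against 175 CPM, 0.202 (0.148–0.271). Cxcr3 stood at 0.433 (0.323–0.575), Itga1 (CD49a) at 0.410 (0.243–0.672), which was 0.627 without the dsRed cells, and Ccr2 at 0.349 (0.282–0.429), which was 0.517 without the class II cells. Cd69, an activation and retention marker, was short of the fold at 0.564 (0.450–0.705), and 0.477 without the class II cells. Itgae (CD103) had 3 and 8 UMIs.

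Costimulatory genes of the TNF superfamily had the highest median of the 21 lists in the main comparison, 3.49. Of 14 genes 11 were compared, 7 were higher past the fold and 0 lower. Among these, Tnfsf4, Tnfsf8, Tnfsf11 and Cd70 reached the 30 UMIs of the gene filter only through the members, where they were higher. The count, the median and its rank are therefore a description. Among receptors, Tnfrsf4 (OX40) stood at 288 against 40.3 CPM, 7.14 (5.44–9.51), found in 63.4% against 7.94% of cells (37.6% and 2.50% thinned). Tnfrsf18 (GITR) stood at 271 against 64.6 CPM, 4.19 (3.35–5.29), found in 83.9% against 38.9%. Ligand genes were higher as well, but at lower levels. Tnfsf4 (OX40 ligand) had 49 UMIs against 5, 9.37 (3.75–30.1), Tnfsf8 (CD30 ligand) 37 against 8, 4.42 (2.03–11.0), Tnfsf11 (RANK ligand) 36 against 9, 3.82 (1.81–9.03), and Cd70 95 against 26, 3.49 (2.24–5.62). Crtam, an adhesion receptor of activated T cells, gave 3.27 (2.39–4.55). Cd28, the main costimulatory receptor of naive T cells, was the lowest at 121 against 213 CPM, 0.569 (0.472–0.683), and 0.444 without the class II cells. Tnfrsf1b, a TNF receptor, followed at 0.926 (0.640–1.34). With a receptor limit of 1000 CPM the list median was 1.68 and Tnfsf4 stood at 1.52. Without the dsRed cells 8 genes could be compared, of which 4 were higher, with a median of 2.13. This was below the medians of cytokines and chemokines, 3.03, and NK receptors, 2.28, in that setting.

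Proximal T cell receptor signalling genes stood level. All 15 were compared, 0 were past the fold in either direction and the median was 1.06, between Fyn at 0.688 (0.568–0.832) and Sh2d2a, an adaptor induced by activation, at 1.93 (1.69–2.21). Cd5, an inhibitor of receptor signals, gave 0.795 (0.624–1.01) and the adaptor Lcp2 1.57 (1.29–1.91). Of 18 activation feedback genes 16 were compared, 2 were higher and 1 lower, median 1.30. Rgs16, a brake on G protein signalling, stood at 175 against 46.4 CPM, 3.78 (2.895–4.9998), and Cish, a brake on cytokine signalling, at 86.1 against 41.0 CPM, 2.10 (1.54–2.89), which was 1.89 without the class II cells. Socs3 was the lower gene at 0.313 (0.210–0.457), followed by the phosphatase gene Dusp5 at 0.658 (0.509–0.848). Common gamma chain receptors, which read interleukins 2, 15 and 21, had a median of 1.86 with 5 of 10 compared genes higher and 0 lower. These were Il21r at 2.72 (2.17–3.43), Il2ra at 2.56 (1.55–4.39), Stat5a at 2.47 (1.71–3.64), Il15ra at 2.26 (1.35–3.91) and Il2rb at 2.19 (1.90–2.52). Il2rb was short of the fold without the class II cells, at 1.92, and Stat5a without the dsRed cells, at 1.98. Jak1 and Il4ra were the lowest, at 0.891 (0.774–1.02) and 0.578 (0.351–0.935), and Il4ra was 0.455 without the dsRed cells. Il2rb was found in 90.3% of members and 62.7% of checkpoint-low cells.

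In the remaining lists few genes were past the fold, apart from interferon-stimulated genes. Apoptosis genes had a median of 1.09 with 3 of 13 higher, among them the survival genes Bcl2a1d at 2.55 (2.07–3.16) and Bcl2a1b at 2.32 (2.08–2.58), while Mcl1 gave 0.847 (0.754–0.952) and Bcl2 0.574 (0.406–0.805), which was 0.499 without the class II cells. Bcl2a1b and Bcl2a1d are near-identical copies, so reads may be split between them. NK receptor genes had a median of 1.70 with 2 of 8 higher, Klrk1 (NKG2D) at 2.28 (1.96–2.65) and Cd226 at 2.16 (1.56–3.02), which was 1.73 without the class II cells. Its 2 lower genes, Fcer1g and Tyrobp, turned to 1.25 and 2.90 without those cells. Glycolysis had 1 of 14 higher, the glucose transporter gene Slc2a3 at 2.39 (1.55–3.78), and a median of 1.33. Hk2 gave 1.76, Gpi1 1.10 and Slc16a3 1.09. Without the class II cells 3 glycolysis genes were higher, with Hk2 at 2.41 and Slc16a3 at 2.65, and the median was 1.55. The respiratory chain (median 1.15), MHC class I presentation (1.11), S phase (1.12), G2 and M phase (1.09), Myc and ribosome biogenesis (1.06) and amino acid transporter (1.02) lists had 0 genes past the fold. Their genes ranged from 0.637 (Slc38a2, an amino acid transporter) to 1.82 (Ung, of S phase). Ung was past the fold at 2.01 without the class II cells and 2.14 without the dsRed cells, and Myc at 2.02 without the class II cells. Without the dsRed cells H2-T23, of MHC class I presentation, was higher at 2.03. Aurkb and Cenpf, of G2 and M phase, were lower in that setting, at 0.448 and 0.487. Type I interferon-stimulated genes had 5 of 10 lower and 0 higher, median 0.535. Ifit3 stood at 0.351 (0.228–0.528), Oasl2 at 0.410 (0.208–0.770), Isg15 at 0.931 (0.712–1.22) and Ifi27l2a at 0.995. Without the dsRed cells 0 of 10 were lower and the median was 0.757, with Ifit3 at 0.509, Oasl2 at 0.504 and Isg15 at 1.34. Oasl2 had too few UMIs to compare without the class II cells. Dissociation stress genes had 1 of 12 higher, Hspa1b, with 92.7% of its UMIs in 1 cell, and 2 lower, Atf3 at 0.440 (0.303–0.629) and Zfp36 at 0.471 (0.370–0.597). Without the class II cells neither was lower, at 8.96 and 0.795, and Hspa1b was short of the fold at 1.58. Jund was short of the fold in the main comparison, at 1.58.

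**Figure D4:**
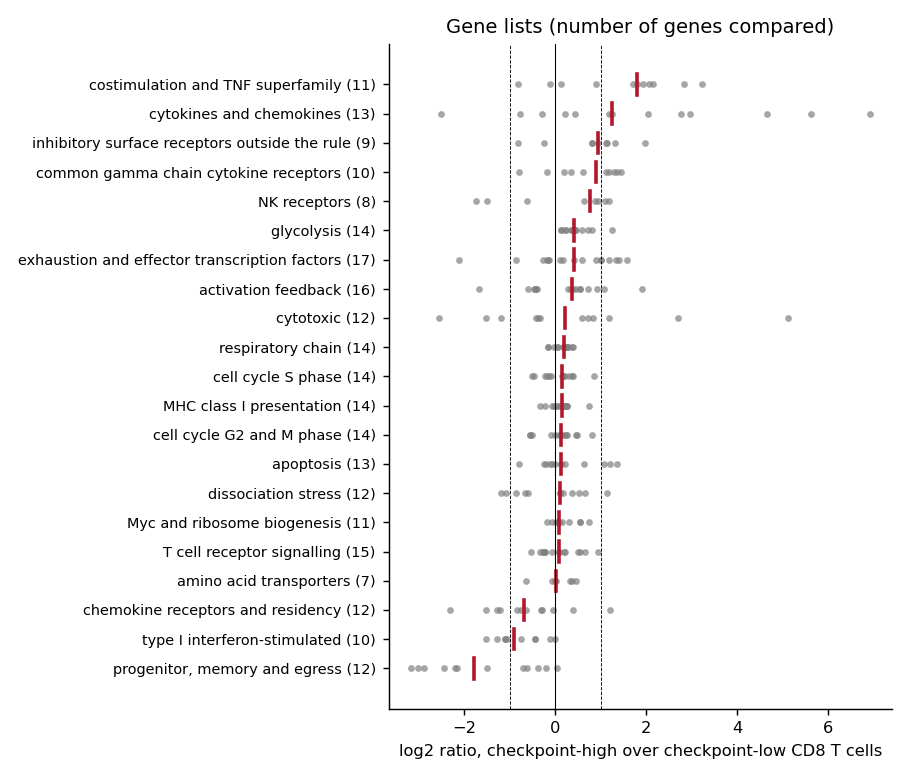
Log2 ratio of checkpoint-high over checkpoint-low CD8 T cells for each compared gene (grey points) of 21 gene lists, with the list median as a red bar, equal levels as a solid line and 2-fold differences as dashed lines. Costimulation and TNF superfamily has the highest median, a ratio of 3.49, and progenitor, memory and egress the lowest, 0.289. Tnfsf4, Tnfsf8, Tnfsf11 and Cd70 of the former list passed the gene filter only through the members, as did some genes of other lists.

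Some leading genes belonged to none of the lists. Nrgn (neurogranin, a calmodulin-binding protein known from neurons) was found in 64.5% of members and 4.76% of checkpoint-low cells (44.1% thinned in members), and in 2.47% of regulatory T cells. It stood at 577 against 59.2 CPM, 9.75 (7.83–12.3), with 18.7 CPM in free RNA. Its ratio was 24.4 without the class II cells. Without cells with a dsRed UMI it was 202, with a wide interval (55.5–1680), as checkpoint-low cells then held only 1.58 CPM. Nrn1 (neuritin, a small membrane-anchored protein) stood at 108 against 8.74 CPM, 12.4 (7.03–23.7), found in 34.4% against 4.76%, with 28.9 without the class II cells and 30.46 without the dsRed cells. With a receptor limit of 1000 CPM Nrgn stood at 4.38 and Nrn1 at 3.12. Cd81, a tetraspanin, gave 4.97 (3.80–6.59), and 17.9 without the class II cells. Serpina3f, a serine protease inhibitor, gave 5.03 (3.31–7.89), and Vamp5, of vesicle fusion, 4.60 (3.28–6.57). The long non-coding RNA 2310031A07Rik gave 5.13 (3.23–8.49). In mm10 it lies at chr11:46440362-46447248 on the minus strand, 7686 bases from Havcr2 at chr11:46454935-46481255 on the plus strand, without overlap. Of the 44 members with a UMI of it, 38 also had a Havcr2 UMI, and Havcr2 was used by the rule.

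Among the 10 lowest ratios, Il7r, Klf2, Tcf7 and Itgb7 stayed at or under 0.264 under each alternative setting tried. The 10 genes were picked by ratio in mostly the same cells, so this too is a description. The other 6 were Ctsh, Tgfbi, H2-Ab1, H2-Eb1, Apoe and Lgmn, genes of macrophages and antigen-presenting cells, at 0.172 to 0.216. Without the class II cells these ranged from 0.792 (Apoe) to 2.64 (Tgfbi).

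Against the 4143 other cells, 1011 of 10557 compared genes were higher past the fold, 9.58%, and 2278 lower, 21.6%. The rule asks for CD3 and CD8 mRNA, so T cell genes had to differ and the counts are a description. Prf1 stood at 630 against 8.22 CPM, 76.7 (69.9–84.0), Nrgn at 577 against 8.81 CPM, 65.6 (59.8–71.9), Ifng at 62.2 (56.8–68.1), Nrn1 at 61.6 (49.8–76.2), Gzmb at 47.3 (44.6–50.2) and Xcl1 at 43.3 (41.1–45.7). Ccl3 was 7.44-fold higher, since other cells held 311 CPM of it. The lowest were the mannose receptor gene Mrc1 with 1 UMI in members against 106 CPM, and Cadm1 with 0 UMIs, a ratio of at most 0.0127 at a floor of 3 counts over the members.

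Other lymphocytes of the tumour shared parts of the profile. NK cells (58 cells) held Xcl1 at 3104 CPM, above the members' 1478, and Gzma at 2030 against 19.3 CPM, while Ccl3 stood at 252, Prf1 at 288 and Nrn1 at 1.97 CPM. Foxp3-negative CD4 T cells (82 cells) held Cxcr6 at 561 CPM, near the 516 of members, and Tnfrsf4 at 441 CPM, with Prf1 at 217, Ifng at 207 and Nrgn at 314 CPM. Regulatory T cells (81 cells) held more Tnfrsf4 (1027 CPM), Tnfrsf18 (660 CPM) and Ctla4 (715 CPM) than members, and little Nrgn (1.79 CPM) and Ifng (25.9 CPM). Ccl3, Ccl4, Gzmb, Prf1 and Ifng stood higher in members than in any of these 3 sets and in checkpoint-low cells.

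Members differed among themselves by Tcf7, a split chosen after its values were seen. A Tcf7 UMI was found in 11 members, a Havcr2 UMI in 57, both in 0 and neither in 25, at median depths of 16585, 13759 and 9858 UMIs. Gzmb was found in 0 of the 11 members with Tcf7 (0–28.5%) and 64 of the 82 without, and Ccl3 in 1 of 11 and 69 of 82. Summed, Ccl3 stood at 5.13 against 2646 CPM, a ratio of 0.00194 (4.91e-05–0.0108), Ccl4 at 20.5 against 2260 CPM, Prf1 at 0.0430 (0.0157–0.0940) and Cxcr6 at 0.0526 (0.0193–0.115). Ccr7 went the other way at 216 against 11.8 CPM, 18.3 (10.1–34.9), as did Slamf6 at 4.39 (2.45–7.70), Crtam at 3.92 (2.84–5.37), Nrgn at 3.52 (3.06–4.05) and Myb at 3.10 (1.43–6.34). Tox gave 1.13 (0.784–1.59). Xcl1 gave a summed ratio of 1.15 (1.02–1.30), but was found in 9 of the 11 with Tcf7 and 31 of the 82 without. Its median per cell was 1247 and 0 CPM. Lag3 gave 0.960 (0.775–1.18) and Pdcd1 0.526 (0.306–0.849). Both belong to the rule, and members without Havcr2 had to reach its limit on the other receptors, so these values are a description. Il7r and Klf2 were found in 1 and 2 of the 11 members with Tcf7 and in 7 and 11 of the 82 without. A dsRed UMI was found in 7 of the 11, and its part in these differences was not tested.

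**Figure D5:**
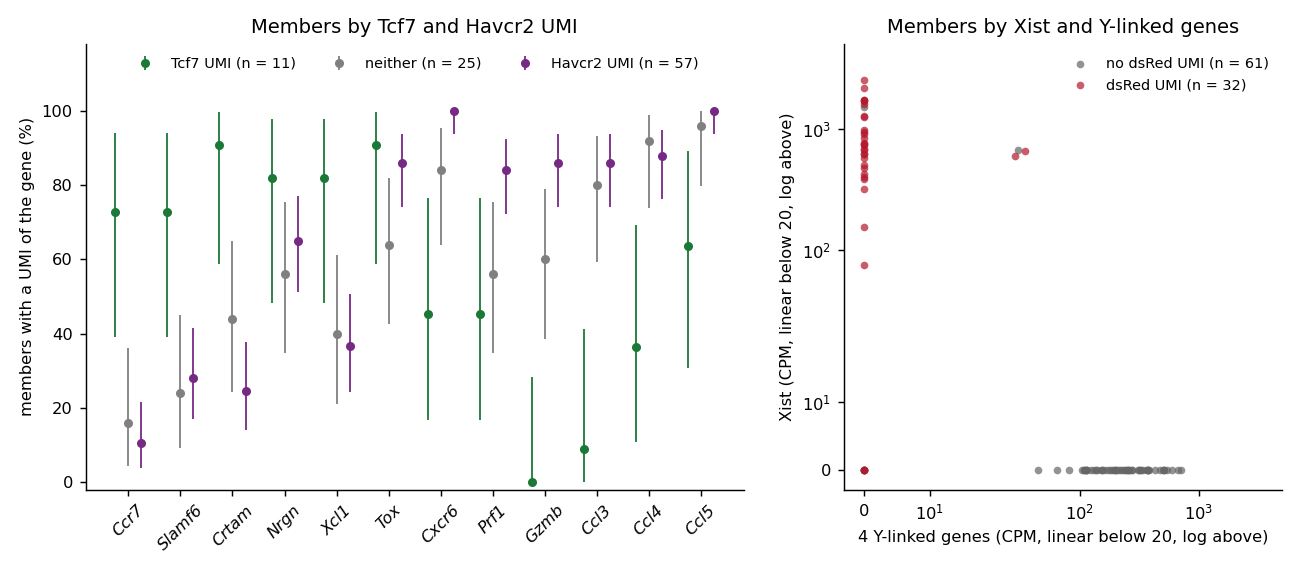
Left, percent of members with a UMI of 12 genes among the 11 members with Tcf7, 57 with Havcr2 and 25 with neither, with exact 95% intervals. Right, Xist against 4 Y-linked genes in each member (CPM, linear below 20 and log above), with the 32 members with a dsRed UMI in red: 28 of these have Xist and no Y-linked UMI.

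Members fell into a pair of groups by sex-linked genes and dsRed. The transgene, a red fluorescent protein counted as dsredexpress1, had a UMI in 32 of 93 members, 34.4% (24.86–44.98), in 7 of 126 checkpoint-low cells, 5.56% (2.26–11.1), and in 0.747% of cells outside CD8 T. Of the 32, 28 had Xist, the RNA of the inactive X chromosome, and no UMI of the Y-linked genes Ddx3y, Eif2s3y, Kdm5d and Uty, 2 had both and 2 neither. Of the 61 without dsRed, 54 had Y-linked UMIs alone, 1 had Xist alone, 1 both and 5 neither. Xist summed to 809 against 32.4 CPM and the Y-linked genes to 2.89 against 214 CPM. Members with dsRed held more Xcl1 (2465 against 688 CPM) and less Gzmb (498 against 1750 CPM) and Ccl5 (1247 against 6460 CPM) than members without. A large part of the Xcl1 UMIs of the dsRed members came from 1 cell, at 13294 CPM.

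Cycling members, set here as at least 1000 CPM of the G2 and M phase list, numbered 19 of 93, 20.4% (12.8–30.1), against 14 of 126 checkpoint-low cells, 11.1% (6.21–17.9), and 6 members lay within 250 CPM of that limit. Cycling members were deep, with a median of 28126 UMIs against 10958 in the rest, and 28 members had no UMI of the list. The share was not taken at equal depth, and the part of depth in it was not tested. Of 5387 genes compared between cycling and other members, 6.72% were higher and 5.35% lower past the fold. Effector genes differed in direction. Ccl5 stood at 1056 against 5855 CPM in cycling and other members, 0.180 (0.165–0.196), Prf1 at 0.311 (0.259–0.371) and Cxcr6 at 0.412 (0.342–0.492). Ccl3 stood at 0.480 (0.443–0.520), and 83.1% of its UMIs in cycling members came from 1 cell. Ifng stood at 0.914 (0.793–1.05), and Xcl1 was higher in cycling members at 1.81 (1.67–1.97), with 59.6% of its UMIs there in 1 cell.

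Spatial barcodes were assigned where the first had at least 10 counts and 2 times the next, which held for 40 members. Of these 30 carried ZC3, 75% (58.8–87.3), 9 carried ZC2, 22.5% (10.8–38.5), and 1 carried ZC1, 2.50% (0.0633–13.2). Checkpoint-low cells were assigned in 50 cases, of which 27 were ZC3, 54.0% (39.3–68.2), 11 ZC2, 22% (11.5–36.0), and 12 ZC1, 24.0% (13.1–38.2). Over all 2368 assigned cells ZC3 made up 93.2%. As shares of all spatial UMIs the sets lay closer: ZC3 held 52.9% in members, 43.7% in checkpoint-low cells and 57.7% in all cells, and ZC1 held 14.8% in members and 24.9% in checkpoint-low cells. The labels do not state the region behind each barcode, and with 1 library these shares have no replicate check. ZC3 was the sole barcode with at least 20 members, of which 11 of 30 had a dsRed UMI, 18 Havcr2 and 23 Ccl3.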

How the data were processed

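Single cells of 1 gene expression library and its spatial barcode library were used. The authors deposited 1 matrix of raw UMI counts with 31055 gene and 3 barcode features, made with Cell Ranger 4.0.0 on mm10 per the submitters' processing notes; no further alignment settings are recorded there. It held 117528298 gene UMIs, and 4236 cells passed the limits. Raw counts were summed over the cells of a set and scaled to CPM, with exact Poisson, conditional binomial (ratios) and Clopper-Pearson (shares) intervals at 95%. These cover counting error only, as no replicates exist. Ratios were taken for genes whose 2 sets together held 30 UMIs or more, with 3 or more expected in the smaller. A gene could thus pass through the UMIs of either set alone. Against checkpoint-low cells this holds in any list for a gene with under 30 UMIs in its lower set. List counts and medians are therefore a description. The genes of the rule were left out of counts. A set at 0 took a floor of 3 counts. Doublets were not called. No column was left unmapped. The code was tested on simulated data.

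Against checkpoint-low cells, genes were named by ratio, 2 from the top and 2 from the bottom of every list. Lists with none past the fold, except receptor signalling, got 1 range. Over all genes the 15 highest and 10 lowest were named, with at least 100 UMIs in the higher set and 20% of its cells. Against the other cells fewer genes were given. Other named genes, all members of the lists or of the Tcf7, dsRed and cycling comparisons, were chosen after their values were seen. The members and all lists were chosen with earlier results of these data known. Gene positions come from GENCODE and promoters from RefSeq (GRCm38.p6). Alternatives changed the receptor limit (250 or 1000 CPM), receptor UMIs, UMIs per cell, the mitochondrial limit, averaging, free RNA, the gene filter, the top cell and the barcode rule. Leaving out the class II and the dsRed cells was chosen after seeing the data. The code ran under Python 3.11.15 with scipy 1.17.1, numpy 2.4.6, matplotlib 3.10.9 and pandas 2.3.3.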

Additional observations from a re-analysis of the deposited data

How the results depend on the processing

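The count of genes past the fold against checkpoint-low cells depended on several settings. Higher genes, 223 of 7325, numbered 382 with a receptor limit of 250 CPM, 537 with the mean of per-cell CPM, 95 with a gene filter of 100 UMIs and 705 with no filter. Lower genes, 399, numbered 121 and 1396 under these filters and 200 without the class II cells. Against the other cells, 1011 higher genes became 5644 with no filter. The members numbered 61 with a limit of 1000 CPM and 61 without dsRed cells. The cause was not tested, save that the filters change which genes are compared. The other 48 main values moved by less than 1.5 times or within their interval, among them the share of members with ZC3, 68.7% to 75%. Single genes past the fold that crossed 1 were Hspa1b (0.506 with the mean of per-cell CPM) and, without the class II cells, Atf3 (8.96), Tyrobp (2.90), Fcer1g (1.25), H2-Eb1 (1.19), Lgmn (1.09), Tgfbi (2.64) and Ctsh (1.24). Ccl9, also past the fold, crossed 1 there at 1.24 but had too few UMIs to compare. Among list medians under alternatives 17 moved and 235 did not. The G2 and M phase list ran from 0.582 (limit of 1000 CPM) to 1.83 (250 CPM). No paired analysis was possible because the labels give no replicate numbers and there is 1 library. Depth limits genes such as Tigit, Il2 and Itgae, which had too few UMIs to compare.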

Other observations

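Programmes varied together across the 93 members, given here as a description over cells of 1 library. The summed cytotoxic list followed the cytokine and chemokine list (Spearman's rho 0.52) and the proximal receptor signalling list (0.54). The homing and residency list ran against the respiratory chain (-0.59) and the Myc and ribosome biogenesis list (-0.61). All of these lists share the depth of the cell. Their rho with gene UMIs was 0.64 for the respiratory chain and 0.68 for Myc and ribosome biogenesis. It was -0.48 for cytokines and chemokines, -0.53 for homing and residency, -0.37 for the cytotoxic list and -0.52 for proximal receptor signalling.

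Effector products were found together or apart in the members as follows. Genes found in many members meet in many of them by their single shares alone. The counts were not set against that overlap, so they are a description. Ifng and Ccl3 UMIs were found together in 63 members, Ifng alone in 13, Ccl3 alone in 7 and neither in 10. Gzmb and Prf1 were found together in 53, Gzmb alone in 11, Prf1 alone in 14 and neither in 15. Each of the 11 members with Gzmc had Gzmb. Xcl1 and Ccl3 were found together in 28 members, Xcl1 alone in 12, Ccl3 alone in 42 and neither in 11. Nrgn was found without Nrn1 in 34 members and with it in 26.

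Per cell, the glycolysis list had a median of 6999 CPM in members and 3663 in checkpoint-low cells, and the respiratory chain list 5316 and 3879 CPM. The progenitor, memory and egress list had medians of 324 and 1832 CPM.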
